A study of Rattus norvegicus with 8 samples.

Results

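The genes Myl4, Myl7, Sln and Nr2f2 mark atrial heart muscle, and their RNA was followed in hearts of aged female rats after ovariectomy and estradiol. Every probe set annotated with exactly 1 symbol, and that symbol among these 4 genes, was taken. This gave 4 of the 14217 genes with such a probe set, measured by 6 of the 31099 probe sets in the deposited table, namely 1 each for Myl4, Myl7 and Sln and 3 for Nr2f2. RNA of the hearts was measured on 8 single-colour Affymetrix arrays, 2 per group, each loaded with RNA pooled in equal amounts from 3 hearts. The rats were Norway Brown females of 18 to 22 months, randomly assigned to surgery. The Late estrogen group was ovariectomized and received a 0.5 mg estradiol pellet that releases over 90 days under the skin 9 weeks after surgery. The Early estrogen group was ovariectomized and received the same pellet at surgery. The Ovx group was ovariectomized and received no pellet, and the Sham group had the body cavity opened and closed with the ovaries left in place. The sources used here name the tissue only as heart, and do not say whether the atria were included or trimmed off. Where nothing says that the 2 pools of a group came from separate animals, a p-value measures only the spread between pools, which may be technical.

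The atria and ventricles of the heart use different versions of the contractile proteins. Myl4 is the essential light chain and Myl7 the regulatory light chain of atrial myosin, and their ventricular counterparts are Myl3 and Myl2. Sln, sarcolipin, is a small membrane protein that slows the calcium pump of the sarcoplasmic reticulum and in rodents is made mainly in the atria, where its ventricular relative is phospholamban (Pln). Nr2f2, also called COUP-TFII, is an orphan nuclear receptor that in mice holds atrial muscle in its atrial state. It is also made by venous and lymphatic endothelium and other non-muscle cells, so it is the least specific to atrial muscle of these genes. In RNA of a whole tissue, a larger share of atrial muscle and more RNA of these genes per cell cannot be told apart.

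Of the 4 genes, 2 have a promoter window in the RefSeq table of the build GRCr8. The 250 bases before the annotated start of Myl4 lie at chr10:89975900-89976149 on the plus strand. They are shown because Myl4 differed most clearly between groups, and the capitals mark a TATA-type run, ATAAAA, whose first base lies 29 bases before the start.
Myl4: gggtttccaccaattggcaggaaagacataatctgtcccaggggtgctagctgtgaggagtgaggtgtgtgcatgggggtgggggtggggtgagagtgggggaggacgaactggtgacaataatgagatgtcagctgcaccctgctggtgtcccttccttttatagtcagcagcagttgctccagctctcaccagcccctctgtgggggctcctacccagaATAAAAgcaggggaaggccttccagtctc
On both strands, ATAAAA occurred in 18.6% of the 33469 promoter windows of this length. It was found again in Myl4 on the minus strand with its leftmost base 92 bases before the start, overlapping the single TATAAA of the window. The estrogen response element, an inverted pair of GGTCA with 3 bases between, was in neither the Myl4 nor the Myl7 window and in 0.0239% of all windows. Its short form GGTCA occurred in the Myl7 window on the minus strand and in 35.4% of all windows, but not in the Myl4 window. The CArG box, the MEF2 box and a direct repeat of AGGTCA with 1 base between, to which COUP-TF proteins can bind, were found in neither window, against 1.5%, 2.96% and 0.0508% of all windows. AGATAA, a form of the GATA motif, was found in neither window and in 10.3% of all windows. AAGTG, the core of the Nkx2-5 motif, occurred 4 times in the Myl7 window and not in that of Myl4, and in 40.6% of all windows. A match is a description of letters, and the absence of one says nothing of the factor. RefSeq also annotates longer transcripts, so that the Myl4 gene reaches 26167 bases and the Myl7 gene 299 bases further upstream than these windows.

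The arrays differed in brightness by replicate number. The trimmed mean signal was 28.2 to 70.0 on replicate 1 arrays and 104.2 to 137.5 on replicate 2 arrays, and all levels below are log2 signals after quantile normalization, unless deposited signals are named. Late estrogen replicate 1 was the dimmest array, with a Gapdh 3' to 5' ratio, which grows as RNA degrades, of 2.70, where the remaining 7 had 1.26 to 1.65. Its actin 3' to 5' ratio of 3.01 lay within the 1.71 to 3.06 of those 7. The cardiomyocyte markers fitted the label of heart: Tnnt2, cardiac troponin T, lay between 12.92 and 13.08 on the 8 arrays, and Myh6, the alpha myosin heavy chain, between 12.41 and 12.76. In every comparison 0% of the 18625 tested probe sets had an adjusted p under 0.05 (limma with Benjamini-Hochberg adjustment), the atrial genes included. Their adjusted p ranged from 0.943 to 1 over 30 tests, which are 5 probe sets in 6 pairwise comparisons, and 2 of the 30 had an unadjusted p under 0.05, both of Myl4. Unadjusted p under 0.05 occurred in 1.47% of tested probe sets for Ovx against Sham, 4.36% for Late estrogen against Ovx, 3.87% for Late estrogen against Early estrogen and 3.37% for Late estrogen against Sham, and in 0 of the 5 atrial probe sets in these 4 comparisons. With the replicate number as a block, 4 of the 30 had an unadjusted p under 0.05 and 0 passed after adjustment. The added ones were Myl7 in Early estrogen against Ovx (limma adjusted p = 0.998, unadjusted p = 0.0222 with the block and 0.0534 without) and Myl4 in Late estrogen against Sham (limma adjusted p = 0.691, unadjusted p = 0.0416 with the block and 0.0761 without). The direction words below therefore describe these arrays.

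**Figure D1:**
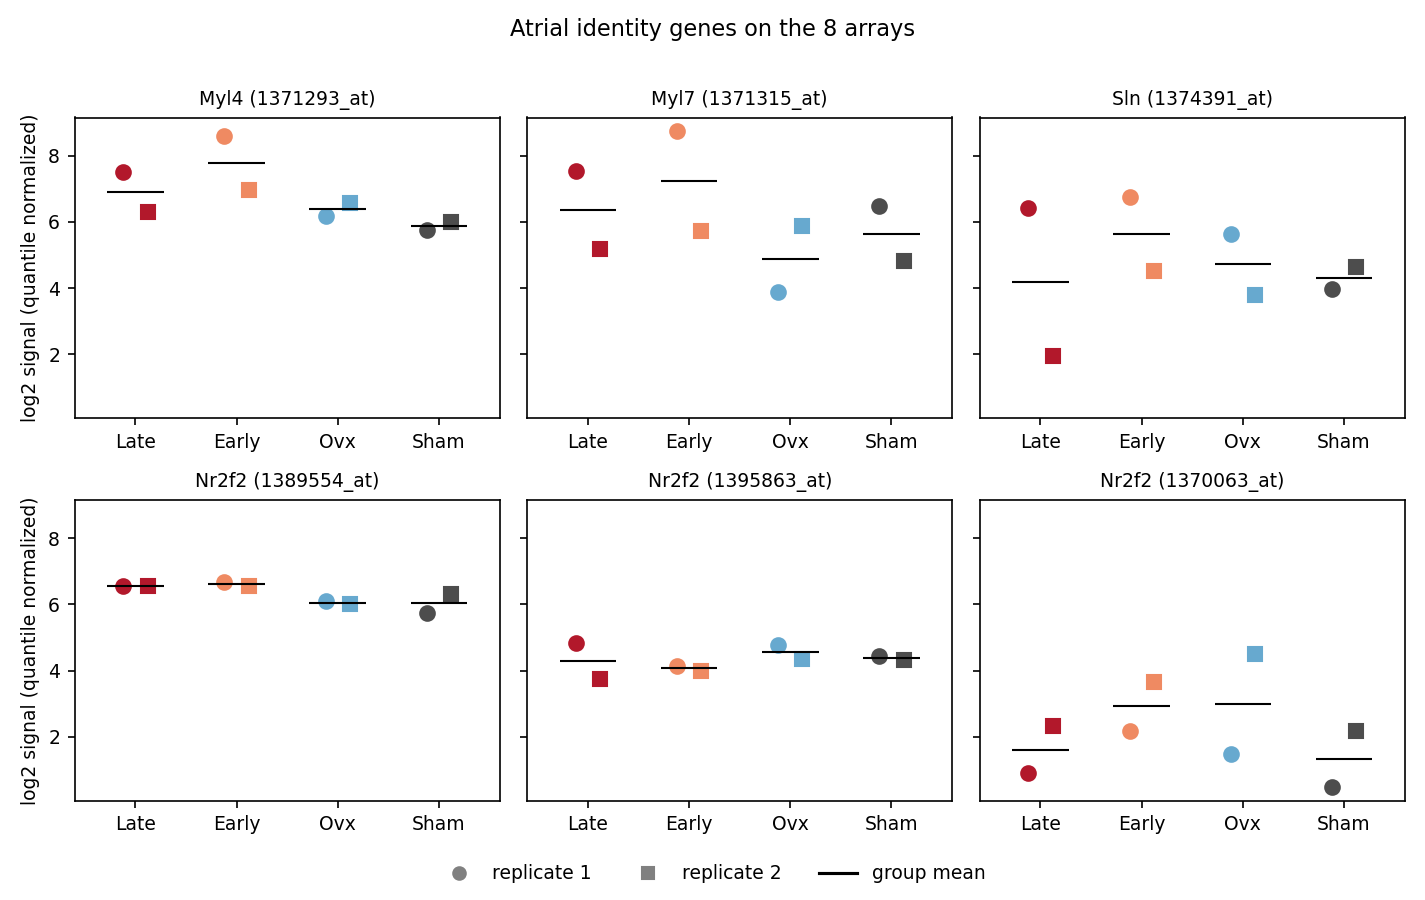
Log2 signal (quantile normalized) of the 6 probe sets on the 8 arrays, by group from left to right (Late estrogen, Early estrogen, Ovx, Sham). Circles are replicate 1, squares replicate 2 and lines group means of 2 arrays. For Myl4, Myl7 and Sln the highest array is Early estrogen replicate 1 and the next is Late estrogen replicate 1.

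Myl4, the atrial essential light chain, was higher on average in both estradiol groups and highest with the early pellet. It stood at 7.50 and 6.30 in Late estrogen hearts, at 8.59 and 6.96 in Early estrogen hearts, at 6.19 and 6.58 in Ovx hearts and at 5.74 and 5.99 in Sham hearts, in each case replicate 1 first. Both Early estrogen arrays lay above all 4 Ovx and Sham arrays, whereas Late estrogen replicate 2 lay between the Ovx arrays. The group means were 6.90 ± 0.84, 7.78 ± 1.15, 6.38 ± 0.27 and 5.87 ± 0.18 (SD, n = 2 each) in the same order. Early estrogen exceeded Ovx by 1.39 ± 0.52 (limma's moderated SE), a 2.63-fold difference, with an unadjusted p of 0.0237 and a limma adjusted p of 1. Early estrogen exceeded Sham by 1.91 ± 0.52, a 3.76-fold difference, with an unadjusted p of 0.00445 and a limma adjusted p of 1. Of all tested probe sets, 1.71% in the first and 0.773% in the second of these comparisons had an unadjusted p under 0.05. Over the 4 groups jointly Myl4 had an unadjusted p of 0.0246 (limma's F test, adjusted p = 1), and 1.86% of tested probe sets were under 0.05. In the order Early estrogen, Late estrogen, Ovx, Sham, the steps between neighbours were 0.88, 0.52 and 0.52, and none passed the test. Only Early estrogen replicate 1 and Late estrogen replicate 1 lay above 7. Without Early estrogen replicate 1, the difference from Ovx was 0.58 and that from Sham 1.10. Without Late estrogen replicate 1, the difference of Late estrogen from Ovx changed sign, at -0.08 in place of 0.52.

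Deposited signals gave a different picture of the replicates of Myl4. They were 68.1 and 113.3 in Late estrogen hearts, 235.9 and 250.7 in Early estrogen hearts, 43.0 and 154.8 in Ovx hearts and 55.9 and 87.1 in Sham hearts. Both Early estrogen arrays had the highest signals, and without normalization the dim Late estrogen replicate 1 array ranked 6 of 8. The difference of Early estrogen from Ovx was 1.58 without normalization, against 1.39 with it. Late estrogen, however, stood only 0.11 above Ovx and 0.33 above Sham without normalization, against 0.52 and 1.03 with it.

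Myl7, the atrial regulatory light chain, differed widely between the 2 pools of every group. Its log2 levels were 7.53 and 5.18 in Late estrogen hearts, 8.74 and 5.74 in Early estrogen hearts, 3.89 and 5.88 in Ovx hearts and 6.49 and 4.81 in Sham hearts. The ranges of all 4 groups overlapped, and the replicate 2 arrays of the 4 groups lay between 4.81 and 5.88. The deposited signals were 69.6 and 48.5 in Late estrogen hearts, 258.1 and 95.7 in Early estrogen hearts, 11.2 and 93.4 in Ovx hearts and 89.3 and 32.3 in Sham hearts. Early estrogen replicate 1 thus had the highest Myl7 signal even before normalization, although that array was among the dimmer ones. Replicate 1 exceeded replicate 2 by 2.35 in Late estrogen and 3.002 in Early estrogen after normalization, and by 0.52 and 1.43 in the deposited signals. The mean difference of Early estrogen from Ovx was 2.35 ± 1.07, made of 4.85 between the replicate 1 arrays and -0.15 between the replicate 2 arrays (limma adjusted p = 1, unadjusted p = 0.0534). The mean difference of Late estrogen from Ovx was 1.47 ± 1.07, made of 3.64 and -0.70 (limma adjusted p = 0.943), and 0.85 without normalization. Ovx against Sham stood at -0.76 ± 1.07, with -2.59 between the replicate 1 arrays and 1.08 between the replicate 2 arrays. By group mean, Myl7 was ordered Early estrogen 7.24 ± 2.12, Late estrogen 6.36 ± 1.66, Sham 5.65 ± 1.19 and Ovx 4.89 ± 1.41 (SD, n = 2 each), and no neighbours differed beyond the test.

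Sln, the sarcolipin gene, had the largest residual SD of the tested atrial probe sets, to which the Late estrogen pools contributed most. Its log2 levels were 6.41 and 1.96 in Late estrogen hearts, 6.76 and 4.52 in Early estrogen hearts, 5.63 and 3.80 in Ovx hearts and 3.97 and 4.65 in Sham hearts. The Late estrogen pools held the second highest and the lowest value of the 8 arrays, 4.45 apart after normalization and 2.79 apart in the deposited signals, and enclosed every Ovx and Sham array. The deposited signals were 35.5 and 5.12 in Late estrogen hearts, 68.6 and 33.4 in Early estrogen hearts, 31.3 and 19.8 in Ovx hearts and 18.5 and 28.3 in Sham hearts. No detection call was used that could separate the lowest of these, 5.12, from background. The Sln signal lay above the array median of 13.3 on Late estrogen replicate 1 and of 16.2 on Early estrogen replicate 1, and also on Ovx replicate 1 and Sham replicate 2. It lay below the medians of 30.2 on Late estrogen replicate 2, 33.9 on Early estrogen replicate 2, 33.4 on Ovx replicate 2 and 26.5 on Sham replicate 1. The group means were 4.18 ± 3.14, 5.64 ± 1.58, 4.72 ± 1.30 and 4.31 ± 0.48 (SD, n = 2 each) in the same order of groups. Early estrogen against Ovx stood at 0.93 ± 1.28 and Late estrogen against Ovx at -0.53 ± 1.28 (limma adjusted p = 1 and 0.984). Without Late estrogen replicate 1 the second of these was -2.75, and without Late estrogen replicate 2 it was 1.69. The residual SD of Sln was 1.89, and 0.564% of tested probe sets had one at least as large. The residual SD was 1.63 for Myl7, reached by 1.55% of probe sets, and 0.73 for Myl4, reached by 19.8%, where the median probe set had 0.395.

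Nr2f2, the COUP-TFII gene, was higher on all 4 estradiol arrays in its brightest probe set after quantile normalization. That probe set (1389554_at) stood at 6.55 and 6.55 in Late estrogen hearts, at 6.68 and 6.57 in Early estrogen hearts, at 6.10 and 6.01 in Ovx hearts and at 5.75 and 6.30 in Sham hearts. The pools of Late estrogen, Early estrogen and Ovx each lay within 0.11 of each other, whereas the Sham pools differed by 0.55. The lowest estradiol array, at 6.55, lay above the highest of the other 4 arrays, at 6.30. A separation of this kind in the same direction was seen in 0.897% of tested probe sets, and in 0.843% in the opposite direction. It was lost when the arrays were centred on their medians, where the estradiol arrays ran from 6.07 up to 6.999 and the others from 5.63 to 6.655, and in the deposited signals. Late estrogen exceeded Ovx by 0.49 ± 0.30 and Early estrogen exceeded it by 0.57 ± 0.30, about 1.41-fold and 1.48-fold (limma adjusted p = 0.943 and 1, unadjusted p = 0.126 and 0.0842). Without normalization these were 0.16 and 0.76. Late estrogen and Early estrogen differed by -0.07 ± 0.30, and Ovx and Sham by 0.02 ± 0.30. In the order Early estrogen 6.62, Late estrogen 6.55, Ovx 6.05 and Sham 6.03, no neighbours differed beyond the test.

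The other Nr2f2 probe sets did not repeat this order. Probe set 1395863_at stood at 4.83 and 3.74 in Late estrogen hearts, at 4.15 and 3.98 in Early estrogen hearts, at 4.79 and 4.36 in Ovx hearts and at 4.43 and 4.33 in Sham hearts. Here the Early estrogen arrays lay below both Ovx and both Sham arrays, at -0.51 ± 0.61 against Ovx (limma adjusted p = 1). Probe set 1370063_at stood at 0.91 and 2.31 in Late estrogen hearts, at 2.18 and 3.66 in Early estrogen hearts, at 1.48 and 4.49 in Ovx hearts and at 0.48 and 2.16 in Sham hearts. Of the 6 probe sets this one alone was too dim to be tested, and its replicate 2 array was higher in every group. With the mean of the 3 probe sets in place of the brightest, Nr2f2 stood at 0.00 for Early estrogen against Ovx and at -0.39 for Late estrogen against Ovx. That mean takes in the untested 1370063_at at full weight, whose group means were 1.61 in Late estrogen, 2.92 in Early estrogen and 2.99 in Ovx hearts.

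**Figure D2:**
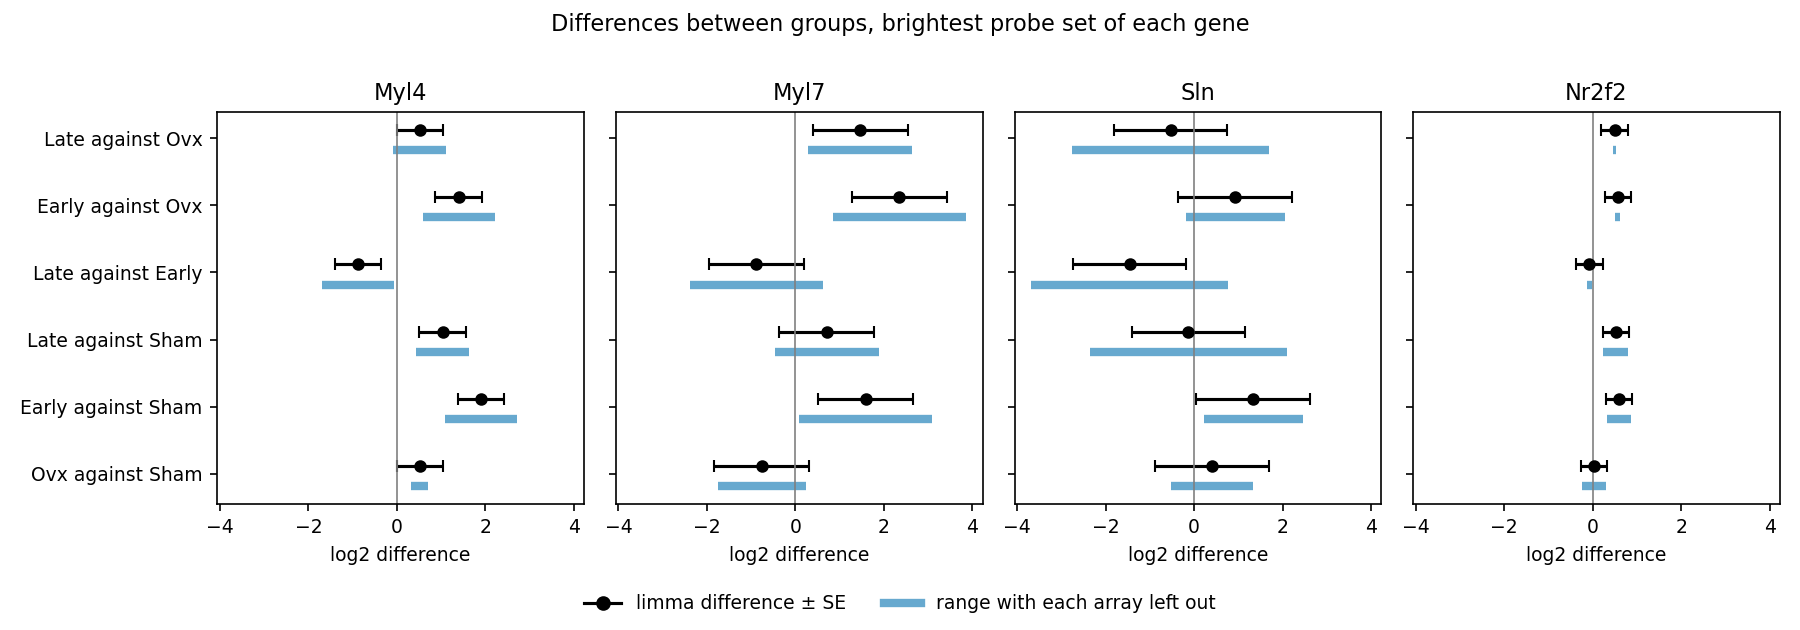
Log2 differences between groups for the brightest probe set of each gene (the group named first minus the other). Black points are limma differences with the moderated standard error, and blue bars span the values obtained with each of the 8 arrays left out. The bars of Sln and Myl7 cross 0 in several comparisons, whereas those of Nr2f2 against Ovx for both estradiol groups stay between 0.45 and 0.62.

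Counted over the 5 tested probe sets, Early estrogen lay wholly above Ovx for 2 (Myl4 and the brightest of Nr2f2) and wholly below for 1 (Nr2f2, 1395863_at), where 14.7% and 12.3% of all tested probe sets did so. Late estrogen lay wholly above Ovx for 1, the brightest of Nr2f2, where 15.7% of all did so. Late estrogen lay wholly above Sham for 2 (Myl4 and Nr2f2), against 14.5% of all, and Early estrogen for the same 2, against 12.1%, with 1 wholly below, against 12.7%. Late estrogen lay wholly below Early estrogen for 1, Nr2f2, by a difference of 0.07, against 16.3% of all. Ovx lay wholly above Sham for 1, Myl4, by 0.52 ± 0.52, against 11.0% of all. These comparisons share the same control arrays, and with 2 arrays a group the smallest two-sided p an exact permutation test could give is 0.333.

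The 2 highest arrays were the same for Myl4, Myl7 and Sln. Each had its highest normalized value on Early estrogen replicate 1 and its next highest on Late estrogen replicate 1. The order of the remaining arrays differed, as Ovx replicate 1 ranked 6 for Myl4, 8 for Myl7 and 3 for Sln. Of the 5 tested probe sets, Early estrogen replicate 1 exceeded replicate 2 by 1 or more for these 3 genes, where 5.91% of all did so. Late estrogen replicate 1 exceeded replicate 2 by 1 or more for these 3 and for Nr2f2 (1395863_at), where 8.68% of all did so. This order of the 2 highest arrays was found in 1.81% of tested probe sets, and 10.1% were highest on Early estrogen replicate 1. Averaged over the 3 genes after centring each on its mean, the arrays stood at 1.32 and -1.34 in Late estrogen hearts, at 2.20 and -0.08 in Early estrogen hearts, at -0.59 and -0.41 in Ovx hearts and at -0.43 and -0.68 in Sham hearts. Early estrogen replicate 1 remained the highest array for all 3 genes when arrays were centred on their medians or 32 was added before the log. Without normalization it was highest for Myl7 and Sln and second for Myl4, while Late estrogen replicate 1 ranked 2 for Sln, 5 for Myl7 and 6 for Myl4.

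Across the 8 arrays, Myl4 and Myl7 correlated with r = 0.80 (exact permutation p = 0.0158, adjusted over the 6 pairs of genes 0.0949) and Spearman's rho = 0.60 (exact permutation p = 0.132, adjusted 0.365). Without the 2 arrays farthest from the Myl4 median, which were Early estrogen replicate 1 and Late estrogen replicate 1, r was 0.05, so the relation rested on those 2 arrays. Myl4 and Sln gave r = 0.65 and rho = 0.48 (exact permutation p = 0.0794 and 0.243, adjusted 0.159 and 0.365), and r = -0.03 without the same 2 arrays. Myl4 and Nr2f2 gave r = 0.71 and rho = 0.81 (exact permutation p = 0.0391 and 0.0218, adjusted 0.117 and 0.131), and r = 0.61 without them. Myl7 and Sln gave only r = 0.50 and rho = 0.33 (exact permutation p = 0.208 and 0.428, adjusted 0.312 and 0.428). Nr2f2 gave r = 0.37 with Myl7 and 0.27 with Sln. The permutations exchanged all 8 arrays freely, without regard to group or replicate number, so the permutation p-values allow for neither. With each replicate number centred on its own mean, r was 0.78 for Myl4 and Myl7, 0.63 for Myl4 and Sln and 0.81 for Myl4 and Nr2f2, and 4 arrays per number were too few for a value within each.

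Other genes known for atrial expression were divided between higher and lower. Of 23 such genes on the list, 17 were tested. Bmp10, an atrial growth factor, had no probe set with its symbol alone, and Nr2f1, Mybphl, Cacna1d and Angpt1 lay below the filter. Early estrogen against Ovx had 10 of 17 higher and 7 lower with a median of 0.02, equal to that of all probe sets at 0.02, and 0 passed (limma; 0 had an unadjusted p under 0.05). Late estrogen against Ovx had 8 higher and 9 lower with a median of -0.0020, against 0.01 for all, and 0 passed with 1 at an unadjusted p under 0.05. Of the 17 genes, 3 were highest on Late estrogen replicate 1 and 4 on Early estrogen replicate 1, where 21.3% and 10.1% of all tested probe sets were. The median deviation from the mean of each gene was -0.06 on the first and 0.12 on the second of these arrays, and the second was the highest of the 8. The summed signal of the list was 13939 on Late estrogen replicate 1 and 13645 on Early estrogen replicate 1, the highest of the 8 arrays, against 11038 to 12900 on the other 6. Such a sum of linear signals does not stand for all 17 genes. It weighs the brightest most, which were Clu, Pam, Nppb and Nppa, with Ovx means of 11.83, 11.57, 11.14 and 10.74. Nppa, atrial natriuretic peptide, stood at 11.81 and 10.85 in Late estrogen hearts, at 11.06 and 11.25 in Early estrogen hearts, at 10.03 and 11.46 in Ovx hearts and at 8.85 and 11.23 in Sham hearts. Its lowest array was Sham replicate 1 and its highest Late estrogen replicate 1, and the difference of Early estrogen from Ovx was 0.41 ± 0.67. Kcna5, a potassium channel of the atrial repolarizing current, was lowest on the array where Myl4, Myl7 and Sln were highest. It stood at 2.90 on Early estrogen replicate 1 against 4.53 to 5.74 on the other arrays. The value of 2.90 is low, and no detection call was used that could separate it from background. Early estrogen against Ovx was -1.28 ± 0.71 for Kcna5, 1.24 ± 0.74 for Itga8, an integrin chain, and 0.45 ± 0.30 for Kcnk3, a background potassium channel. Kcnj3, a subunit of the atrial potassium channel opened by acetylcholine, differed by 0.16 ± 0.42, Gja5, the atrial and conduction connexin, by -0.12 ± 0.32 and Nppb, B-type natriuretic peptide, by -0.02 ± 0.17. In Late estrogen against Ovx the largest differences of the list were -0.999 ± 0.53 for Chrm2, the muscarinic receptor of heart muscle, 0.59 ± 0.67 for Nppa and -0.55 ± 0.42 for Kcnj3.

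**Figure D3:**
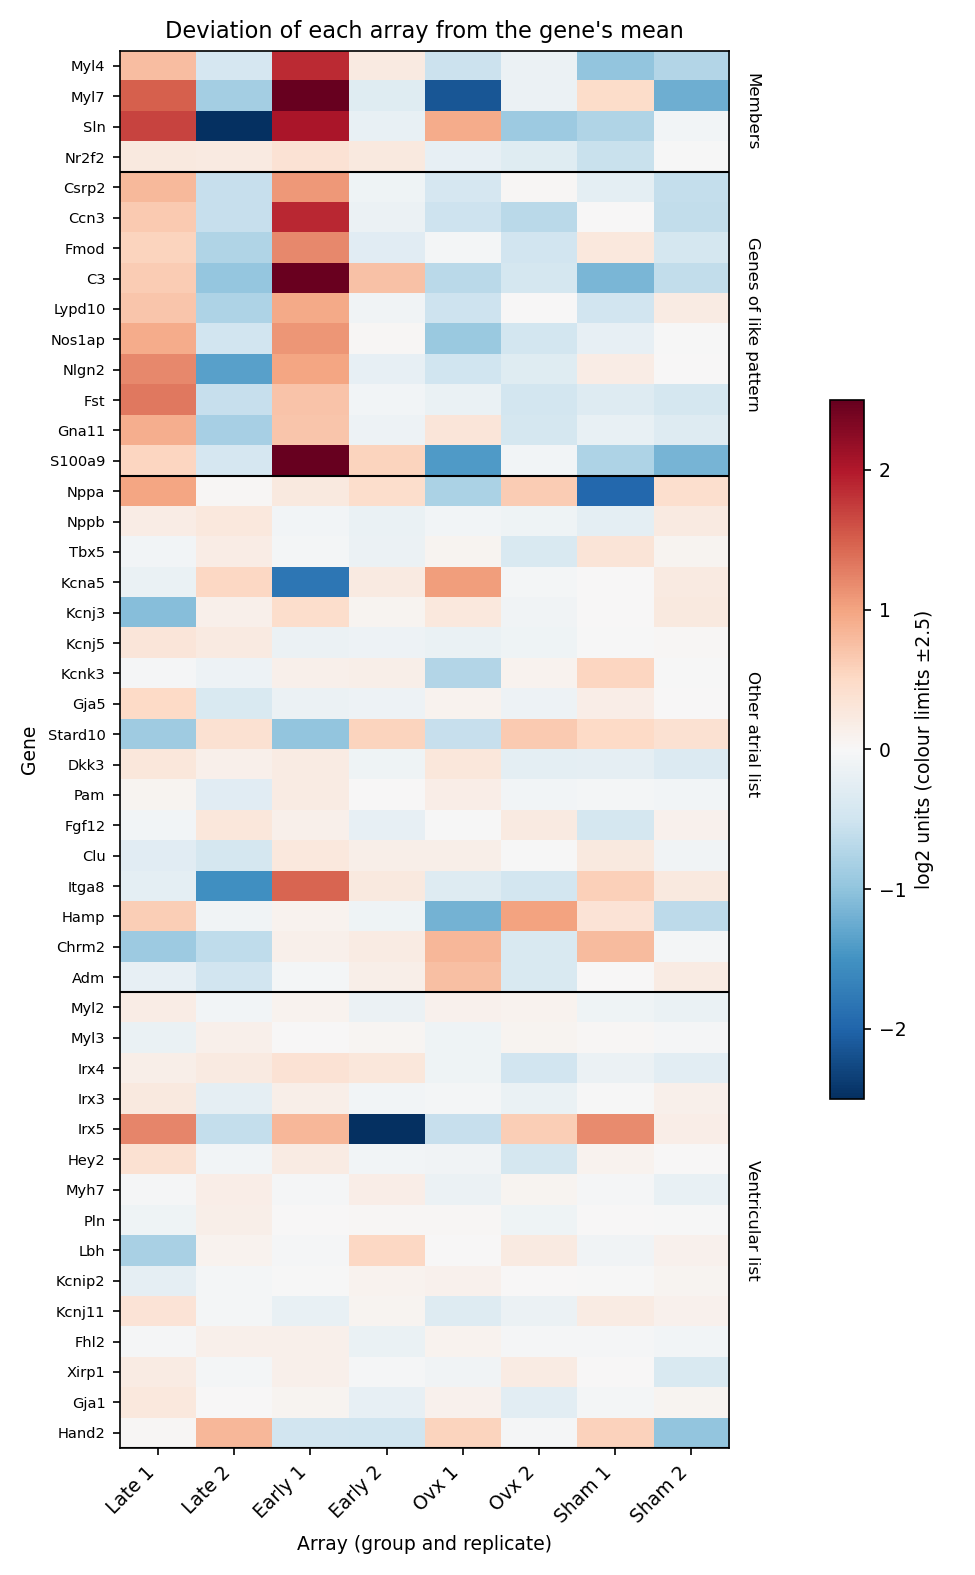
Deviation of each array (columns, by group and replicate) from a gene's mean over 8 arrays, in log2 units on a colour scale limited to ±2.5. Rows are the 4 genes, the 10 genes most like the mean of Myl4, Myl7 and Sln, the other tested atrial genes and the tested ventricular genes. Red in the columns Early 1 and Late 1 is seen in the upper blocks, and for the 10 genes it follows from how they were picked. The atrial and ventricular lists below hold both colours in these columns.

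Ventricular genes differed in how far they ranged over the pools. Myl2 and Myl3, the ventricular counterparts of Myl7 and Myl4, spanned 0.35 and 0.28 over the 8 arrays, and Pln, the counterpart of Sln, spanned 0.26. These lie near the top of the scale, where quantile normalization leaves little room to vary. Further down, Irx5 spanned 4.07, Hand2 1.82 and Lbh 1.31. Irx5 was dim, with group means from 2.73 in Early estrogen to 4.42 in Sham hearts. No detection call was used that could separate its low values from background. Of the 15 ventricular genes 7 were highest on Late estrogen replicate 1, where 21.3% of all tested probe sets were, and their median deviation on that array was 0.15. Of the 15 tested ventricular genes, 9 were higher and 6 lower in Early estrogen against Ovx, with a median of 0.04, and 11 higher and 4 lower in Late estrogen against Ovx, with a median of 0.10, where all probe sets had 0.02 and 0.01. Of them 0 passed in either comparison (limma), with 1 in each at an unadjusted p under 0.05. Their largest differences in Early estrogen against Ovx were -1.03 ± 1.24 for Irx5, -0.74 ± 0.45 for Hand2 and 0.62 ± 0.20 for Irx4, all transcription factors. Of the myosin light chains and their partners, 6 of 12 were higher and 6 lower in each of the same comparisons. Among them Myl1, a light chain best known from fast skeletal muscle, stood at 0.83 ± 0.45 in Early estrogen and 0.96 ± 0.45 in Late estrogen against Ovx. The next largest, Mylk2, went the other way, at -0.82 ± 0.51 and -0.57 ± 0.51. Mylk followed at 0.73 ± 0.23 and 0.38 ± 0.23. The median of 13 genes of the calcium pump and its store, without Sln, was 0.03 in Early estrogen and 0.12 in Late estrogen against Ovx. Atp2a2, the pump that Sln inhibits, differed by 0.01 ± 0.14 and -0.04 ± 0.14. Myh6 and Myh7, the alpha and beta heavy chains, differed by -0.03 ± 0.16 and 0.10 ± 0.14 in Early estrogen against Ovx. The summed signal of 18 cardiomyocyte genes ran from 76869 to 82958 in Late estrogen, from 81758 to 83702 in Early estrogen, from 79098 to 81022 in Ovx and from 82129 to 83073 in Sham hearts.

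Of 15 tested partners and relatives of Nr2f2 in the atrial and ventricular gene network, 13 were higher and 2 lower in Early estrogen against Ovx, with a median of 0.07, and 10 higher and 5 lower in Late estrogen against Ovx, with a median of 0.21, where all probe sets had 0.02 and 0.01. Of them 0 passed (limma), with 1 and 3 at an unadjusted p under 0.05, where 1.71% and 4.36% of all probe sets were. The largest in the first comparison were -1.40 ± 0.77 for Tbx2, a T-box repressor, 1.13 ± 0.58 for Zfpm2, a cofactor of GATA4, and 0.98 ± 0.68 for Nr2f6, a relative of Nr2f2. In the second they were 1.48 ± 0.58 for Zfpm2, 0.65 ± 0.26 for Hey1, a repressor downstream of Notch, and 0.49 ± 0.20 for Irx4. Zfpm2 was lowest on Ovx replicate 1, at 3.49 against 5.27 to 6.11 on the other 7 arrays.

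Marker lists of other cell types took both directions on the arrays where Myl4, Myl7 and Sln were highest, and their part in the result was not tested. On Late estrogen replicate 1 and Early estrogen replicate 1 the median deviation was 0.28 and 0.29 for venous endothelium, 0.18 and 0.24 for smooth muscle, 0.08 and 0.18 for skeletal muscle, 0.39 and -0.17 for arterial endothelium, -0.78 and 0.26 for fibroblasts, 0.06 and -0.19 for sinus node and conduction tissue and -0.35 and -0.15 for adipocytes. The mesothelial and epicardial list had 7 of 12 genes tested. Its median deviation was 0.64 and -0.34 in Late estrogen, 0.64 and 0.55 in Early estrogen, 0.13 and -0.08 in Ovx and -0.23 and -0.19 in Sham hearts. Its summed signal ran from 176.9 to 302.5 in Late estrogen, from 260.9 to 360.6 in Early estrogen, from 180.6 to 197.1 in Ovx and from 179.9 to 183.4 in Sham hearts, and Msln, Krt8 and Bnc1 were too dim to be tested. In Early estrogen against Ovx, 5 genes of the list were higher and 2 lower. The largest differences were 2.17 ± 0.69 for C3, complement component 3, 0.81 ± 0.79 for Lrrn4 and 0.66 ± 0.61 for Aldh1a2, which makes retinoic acid. The 2 lower genes were Tbx18 at -0.28 ± 0.53 and Krt19 at -0.07 ± 0.79. C3 weighed on the sum, at 7.39 on Early estrogen replicate 1 against 3.77 to 4.47 on the Ovx and Sham arrays. In Late estrogen against Ovx, 5 genes of the list were higher and 2 lower. The largest differences there were -2.76 ± 0.79 for Krt19, 0.95 ± 0.79 for Lrrn4 and 0.92 ± 0.32 for Wt1. Krt19 had a mean of only 2.26 in Late estrogen hearts and Lrrn4 of 3.62 in Ovx hearts. No detection call was used that could separate such values from background. Of 12 tested fibroblast genes, 6 were higher and 6 lower in Early estrogen against Ovx. Of 10 smooth muscle genes 6 were higher and 4 lower, and of 12 venous endothelial genes, Nr2f2 left out, 7 were higher and 5 lower. In Late estrogen against Ovx, 11 of 12 fibroblast genes and 7 of 12 venous genes were lower, and 6 of 10 smooth muscle genes were higher. Plvap, a protein of fenestrated endothelium, stood at -2.04 ± 0.65 in that comparison and at 0.57 ± 0.65 in Early estrogen against Ovx. In Late estrogen hearts Plvap, Selp and Ackr1 were dim, with means of 2.97, 3.68 and 3.245, and no detection call was used. The venous genes Selp and Ackr1 followed Plvap in size, at -1.46 ± 0.95 and -1.01 ± 0.73 in Late estrogen against Ovx. Of the 5 venous genes higher there, Tek, an endothelial receptor kinase, stood at 0.54 ± 0.22 and Prox1, a lymphatic transcription factor, at 0.43 ± 0.29. Vwf, von Willebrand factor, stood at 0.41 ± 0.27, and these higher genes were chosen after their values were seen. Of the 16 skeletal muscle genes, in which Sln and Myl4 can also be active, 8 were tested. In Early estrogen against Ovx 4 were higher and 4 lower, and the fast fibre genes Myh4, Tnnt3, Actn3, Pvalb and Atp2a1 lay below the filter. Of 13 genes of the sinus node and conduction tissue, 6 were tested, with 2 higher and 4 lower in Early estrogen against Ovx, and the pacemaker genes Hcn4, Shox2, Isl1 and Cacna1g lay below the filter. Of 10 tested arterial endothelial genes 6 were higher in Early estrogen and 10 in Late estrogen against Ovx, and of 3 tested adipocyte genes 2 were higher in each.

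**Figure D4:**
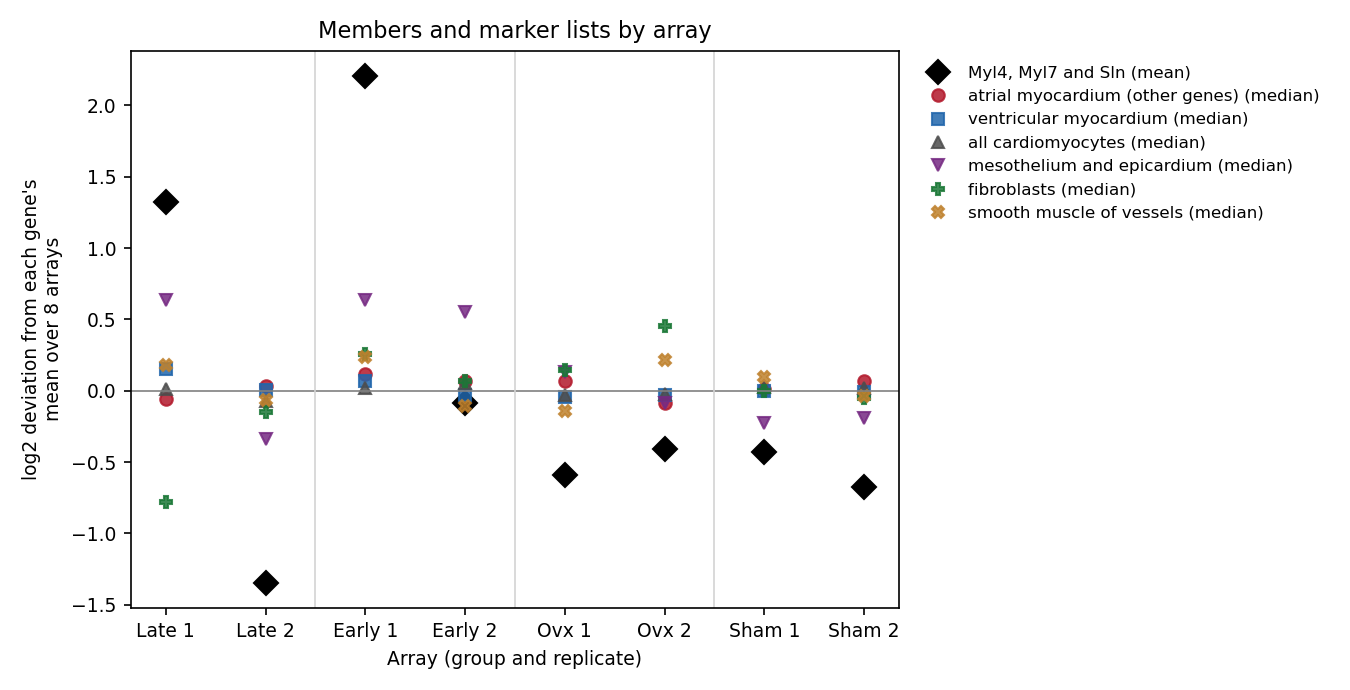
Log2 deviation from each gene's mean on the 8 arrays, as the mean of Myl4, Myl7 and Sln (black diamonds) and as the median of 6 marker lists. Groups run from Late estrogen on the left to Sham on the right, replicate 1 before replicate 2. The diamonds span -1.34 to 2.20, whereas the other atrial, the ventricular and the cardiomyocyte list medians stay between -0.09 and 0.15 on every array. These summaries are unlike, as a list median stays near 0 when its genes move both ways, and single list genes ranged further.

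Genes outside the lists were ranked by how closely their values followed the atrial genes over the 8 arrays. Compared with the mean of Myl4, Myl7 and Sln, the highest of 2130 genes were Csrp2, a LIM-domain protein of smooth muscle, at r = 0.97, Ccn3, a matricellular protein, at 0.94, Fmod, fibromodulin, a collagen-binding proteoglycan, at 0.92, C3 at 0.91 and Lypd10 at 0.90. They were followed by Nos1ap, an adaptor of neuronal nitric oxide synthase, at 0.90, Nlgn2, a neuroligin, at 0.89, Fst, the activin-binding follistatin, at 0.88, Gna11, a G protein alpha subunit, at 0.86 and S100a9, a calcium-binding protein of neutrophils, at 0.85. These r values are the highest of many and share arrays and depth, so they describe the likeness only. Csrp2 stood at 7.12 and 5.73 in Late estrogen hearts, at 7.40 and 6.21 in Early estrogen hearts, at 5.90 and 6.35 in Ovx hearts and at 6.06 and 5.71 in Sham hearts. Csrp2 was picked for its likeness to a profile that is highest on Early estrogen replicate 1 and Late estrogen replicate 1. That these were also its highest arrays follows largely from that choice.

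Taken singly, Myl4 was closest to C3 (r = 0.97), S100a9 (0.95), Csrp2 (0.91), Pla2g2a, a secreted phospholipase (0.90), and Ptgs1, a cyclooxygenase (0.90), of 3115 genes. S100a9 stood at 6.00 and 5.06 in Late estrogen hearts, at 8.19 and 6.03 in Early estrogen hearts, at 4.06 and 5.40 in Ovx hearts and at 4.70 and 4.30 in Sham hearts. Myl7 ranked only 14th and Sln 55th among the genes most like Myl4. Myl7 was closest to Ccn3 (r = 0.90), S100a9 (0.88), Agr2 (0.85), Rhbdl3 (0.84) and Foxl2 (0.84) of 1240 genes, with Myl4 10th. Sln was closest to Sh2b2 (r = 0.87), Kcnk10 (0.85), Nlgn2 (0.84), Kctd17 (0.83) and Ces5a (0.81) of 1223 genes, with Myl4 58th and Myl7 127th. Nr2f2 was closest to Nrbp2 (r = 0.95), Drd4 (0.94), Ssh2 (0.94), Pim3 (0.93) and Gucy1b1 (0.93) of 9372 genes, with Myl4 212th, Myl7 1601st and Sln 2316th. Its own r was 0.71 with Myl4, 0.37 with Myl7 and 0.27 with Sln.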

How the data were processed

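The deposited values are a linear signal intensity for each probe set on each array. Per the submitters' processing notes the authors used MAS5, whose version and scaling target are not stated in them, and no detection calls were used. Log2 values were quantile normalized between the 8 arrays, since the arrays were not on a common scale. Of 31099 probe sets, 57 controls were left out, and the 18625 whose mean over the arrays reached the 40th percentile entered the tests. Gene names came from the platform annotation: 20826 probe sets had 1 symbol, 436 several and 9780 none, and 20758 of the first matched RefSeq of GRCr8 by Entrez number. Columns belonging to no listed sample numbered 0.

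All 8 arrays entered a limma 3.58.1 fit (R 4.3.3) of 4 group means, with 4 residual degrees of freedom and a prior variance that follows intensity. Tests were two-sided, adjusted by Benjamini-Hochberg over all tested probe sets at 0.05. The number of arrays limits the precision. The script was tested on simulated data. Replicate 2 minus replicate 1 differences correlated across probe sets in all 6 pairs of groups (r from 0.28 to 0.33). The main fit did not use the replicate number, and a fit with it as a block was an alternative. Other alternatives were no normalization, median centring, no filter, 32 added before the log, no trend, arrays left out and averaging the probe sets of each gene. A gene was represented by its brightest probe set. The named genes were the members, the 3 list genes of largest difference, a fixed set of heart genes, and the 5 genes (10 for the joint profile) of highest correlation with a member whose SD was at least 0.5 of the member's. The members, gene lists and comparisons were chosen with earlier results of these data known.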

Additional observations from a re-analysis of the deposited data

How the results depend on the processing

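Of the 24 differences (4 genes, 6 comparisons), 0 passed under any of the 17 alternatives, and the lowest limma adjusted p was 0.286, for Myl4 in Late estrogen against Sham without Late estrogen replicate 2. Precision is limited by 2 arrays a group and by low signal for the dimmest Nr2f2 probe set and for Sln on several arrays, most of all Late estrogen replicate 2. Myl7 was also dim on Ovx replicate 1, with a deposited signal of 11.2 under an array median of 17.0. Normalization, filter, offset, trend and replicate block kept the direction of the Myl4 and Myl7 differences. With the replicate block, adjusted p ran from 0.662 to 1, and it changed no call of these genes. Differences that changed sign were as follows, and the cause was not tested. Without between-array normalization Nr2f2 stood at -0.30 for Ovx against Sham and -0.14 for Late estrogen against Sham, and with median centring at -0.16 for Ovx against Sham. With 32 added before the log, Sln stood at 0.079 for Late estrogen against Ovx and 0.32 for Late estrogen against Sham. Without the 2 dimmest arrays (Late estrogen replicate 1 and Ovx replicate 1), Late estrogen against Ovx was -0.27 for Myl4 and -0.70 for Myl7, Late estrogen against Sham was -0.47 for Myl7, and Ovx against Sham was 0.24 for Myl7, -0.51 for Sln and -0.02 for Nr2f2. Without Early estrogen replicate 1 and Late estrogen replicate 1 together, an alternative chosen after seeing the data, Myl4 stood at -0.079 for Late estrogen against Ovx, Myl7 at -0.47 for Late estrogen against Sham and Sln at -0.19 for Early estrogen against Ovx. With the mean of its probe sets, the untested dim one included, Nr2f2 stood at 0.00 (-0.0013) for Early estrogen against Ovx and -0.39 for Late estrogen against Ovx.

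With 1 array left out, Myl4 ranged from -0.079 to 1.12 for Late estrogen against Ovx. Myl7 ranged from -1.75 to 0.24 for Ovx against Sham, from -2.38 to 0.62 for Late estrogen against Early estrogen and from -0.47 to 1.88 for Late estrogen against Sham. Sln ranged from -0.51 to 1.32 for Ovx against Sham, from -0.19 to 2.05 for Early estrogen against Ovx, from -2.75 to 1.69 for Late estrogen against Ovx, from -3.68 to 0.76 for Late estrogen against Early estrogen and from -2.35 to 2.10 for Late estrogen against Sham. Nr2f2 ranged from -0.25 to 0.30 for Ovx against Sham. Of all probe sets, the count passing with 1 array left out ranged from 0 to 3 for Ovx against Sham, from 0 to 58 for Late estrogen against Ovx, from 0 to 100 for Late estrogen against Early estrogen, from 0 to 89 for Late estrogen against Sham and from 0 to 1 for any difference among the 4 groups, in each case against 0 with all arrays. The counts of 58, 100 and 89 came without Late estrogen replicate 2, and the 3 for Ovx against Sham without Ovx replicate 1. Late estrogen against Ovx had 1 passing probe set with the replicate block, with no filter and with 32 added. Without the 2 dimmest arrays 6, 1 and 2 passed for Ovx against Sham, Early estrogen against Ovx and Late estrogen against Ovx. The brightest probe sets of the 4 genes were not among these.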

Other observations

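A few genes outside the atrial set separated the estradiol arrays from the others as the brightest Nr2f2 probe set did. Of 136 tested genes on the marker lists, 2 lay higher on all 4 estradiol arrays than on any other array and 2 lay lower, where 0.897% and 0.843% of all tested probe sets did so. Irx4, a transcription factor of ventricular muscle, ran from 8.33 to 8.54 on the 4 estradiol arrays and from 7.69 to 8.06 on the 4 Ovx and Sham arrays. Sox17, a factor of arterial endothelium, ran from 6.90 to 7.04 and from 6.61 to 6.77. Cidea, a lipid droplet protein, was lower with estradiol, from 8.94 to 9.12 against 9.47 to 9.74, and so was Smoc2, a secreted matrix protein, from 5.57 to 5.89 against 5.95 to 6.49. The differences of the means, estradiol minus others, were 0.51 for Irx4, 0.31 for Sox17, -0.51 for Cidea and -0.47 for Smoc2, and each kept its sign under the other scalings. With arrays centred on their medians only Smoc2 of these 4 still separated, and without normalization none did. These genes were picked for this separation, so no test is given.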
